A study of Drosophila melanogaster with 12 samples.

Results

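The genes described here are 10 protein-coding genes of the Drosophila melanogaster male reproductive tract whose transcripts were more abundant at 96 h than at 48 h of male age: laza, Bbd, CG18628, CG43788, CG14022, CG42521, CG5397, CG3690, CG10175 and CG6055. They were picked by symbol, out of 17559 genes in the count tables, because earlier work on the same tables had named them as rising with age. Their change with age is therefore a description of what chose them and carries no test here. All 10 were among the 13156 genes that passed the filter on low counts. The differences between mating regimes were not the basis of that choice and were tested. The earlier work had, however, asked for no overlap between the ages. This favours genes that rose in both regimes, and so it limits the test of whether the rise differed between regimes. It also disfavours genes with a wide spread within an age, a wide gap between regimes included. The regime tests at 48 and 96 h are therefore not wholly free of the choice.

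Males of the IV base population had founded 6 populations, which evolved for 168 generations under 1 of 2 mating regimes. In the 3 monogamous populations, 1 male was kept with 1 virgin female at each mating. In the 3 polygamous populations, 5 males mated among 5 females, and females of both regimes then laid eggs in groups of a fixed size. Virgin males were then collected from all populations and kept to an age of 48 or 96 h, and 30 dissected tracts, consisting of accessory glands, testes and ejaculatory duct, went into a library. The 4 groups of regime and age thus held 3 libraries each, 12 in all. A population was the replicate, at each age it was represented by a single pool, and the spread between pools of 1 population was not measured.

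In the fly, the paired accessory glands make most of the seminal fluid, the testes make the sperm, and the muscular ejaculatory duct carries and adds to both. In the first days of adult life the glands grow and fill with stored product. Among the 10 genes, 2 have a role that is well established. The gene laza (lazaro) encodes a lipid phosphate phosphatase, an enzyme that removes phosphate from phosphatidic acid and is known from the phototransduction cascade of the eye. The gene Bbd (bombardier) is known from the fat body, where the Toll immune pathway induces it and where it is needed for the short Bomanin peptides to accumulate in the haemolymph. The other 8 genes carry only annotation numbers, and no role is given for them here.

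Libraries held 31367030 to 40581251 gene counts, and levels are given as CPM, counts per 1000000 of the library size as scaled by edgeR. A count of 3 was worth 0.0727 to 0.0990 CPM, and the lowest count of any of the 10 genes was 70, for laza in monogamous population 2 at 48 h. One library was unlike the other 11, that of monogamous population 1 at 48 h, which lay at -58.2 on a first principal component that held 31.0% of the variance, against -10.4 to 12.7 for the rest. Accessory gland main cell markers (10 of 10 detected in every library) took 1.10% of its counts and 2.57% to 3.41% of those of the other 48 h libraries. Secondary cell markers (6 of 6 measured) took 0.0144% against 0.0798% to 0.129%. Some results are also given without this library or without both libraries of its population. Markers of all the dissected tissues were present, and testis spermatocyte and spermatid markers took 0.757% to 1.01% of the counts in every library.

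Several marker lists moved with age alongside the 10 genes. The 3 ejaculatory duct markers summed to 0.395% to 0.533% of counts at 48 h and to 0.218% to 0.374% at 96 h, lower in 6 of 6 populations. Gld alone was higher at 96 h in 1 of 6. Haemocyte markers, with 7 of 7 measured and 1 of them at 0 in some library, took 0.0327% in the 48 h library of monogamous population 1, 0.0166% to 0.0203% in the other 48 h libraries and 0.00917% to 0.0155% at 96 h, their sum also lower in 6 of 6. The markers of this list did not all fall. Pxn, vkg, Col4a1 and SPARC were higher at 96 h in 0 of 6 populations, NimC1 in 2 of 6, and Hml and the scarce He in 4 of 6. Summed early germline, testis somatic and neuron markers were higher at 96 h in 6 of 6, by small amounts, though single markers such as upd1 (1 of 6) were not. The 4 early germline markers, for instance, went from 0.0133% to 0.0153% at 48 h to 0.0140% to 0.0173% at 96 h. Summed ejaculatory bulb markers, of an organ that the labels do not name among the dissected ones, were higher at 96 h in 5 of 6 populations (4 of 4 measured). Singly, EbpIII was higher in 6 of 6, Ebp in 4 of 6, and EbpII and Est-P in 3 of 6 each. Their sum took 0.0720% and 0.0693% of counts at 96 h in monogamous populations 1 and 3, 0.00477% to 0.00598% in the other 96 h libraries and 0.00358% to 0.00605% at 48 h. In those other 96 h libraries too, each of the 10 genes lay above all its 48 h levels. The choice of the genes had fixed this in advance, so it does not bear on the part of the bulb markers. Summed main cell markers were lower at 96 h in all populations except monogamous population 1, though SP alone was higher in 3 of 6. The part of these shifts in the levels of the 10 genes was not tested, and in pooled tissue fewer cells of a type and less RNA per cell cannot be told apart.

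For every 1 of the 10 genes, all 6 libraries at 96 h lay above all 6 at 48 h, and so the level was higher in 6 of 6 populations. Over all genes tested, 217 were separated in this direction, which is 1.65%, and 1324 were higher in 6 of 6 populations, which is 10.1%. These shares are printed only as the background of a choice that used the same contrast. Across the 13156 genes, edgeR's quasi-likelihood test with Benjamini-Hochberg adjustment called 206 for age, which is 1.57%, with 112 higher at 96 h (0.851%) and 94 lower (0.715%). With the population as a block the count was 445, and without both libraries of monogamous population 1 it was 819. With 1 library left out it ran from 77, without the 96 h library of polygamous population 2, to 926, without the 48 h library of monogamous population 1. The median log2 change of the 10 genes was 0.98, beside 0.01 for all genes tested. The largest of the 10 rises, in CG5397, was the 38th largest of all genes tested, and the smallest, in CG18628, was the 427th.

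**Figure D1:**
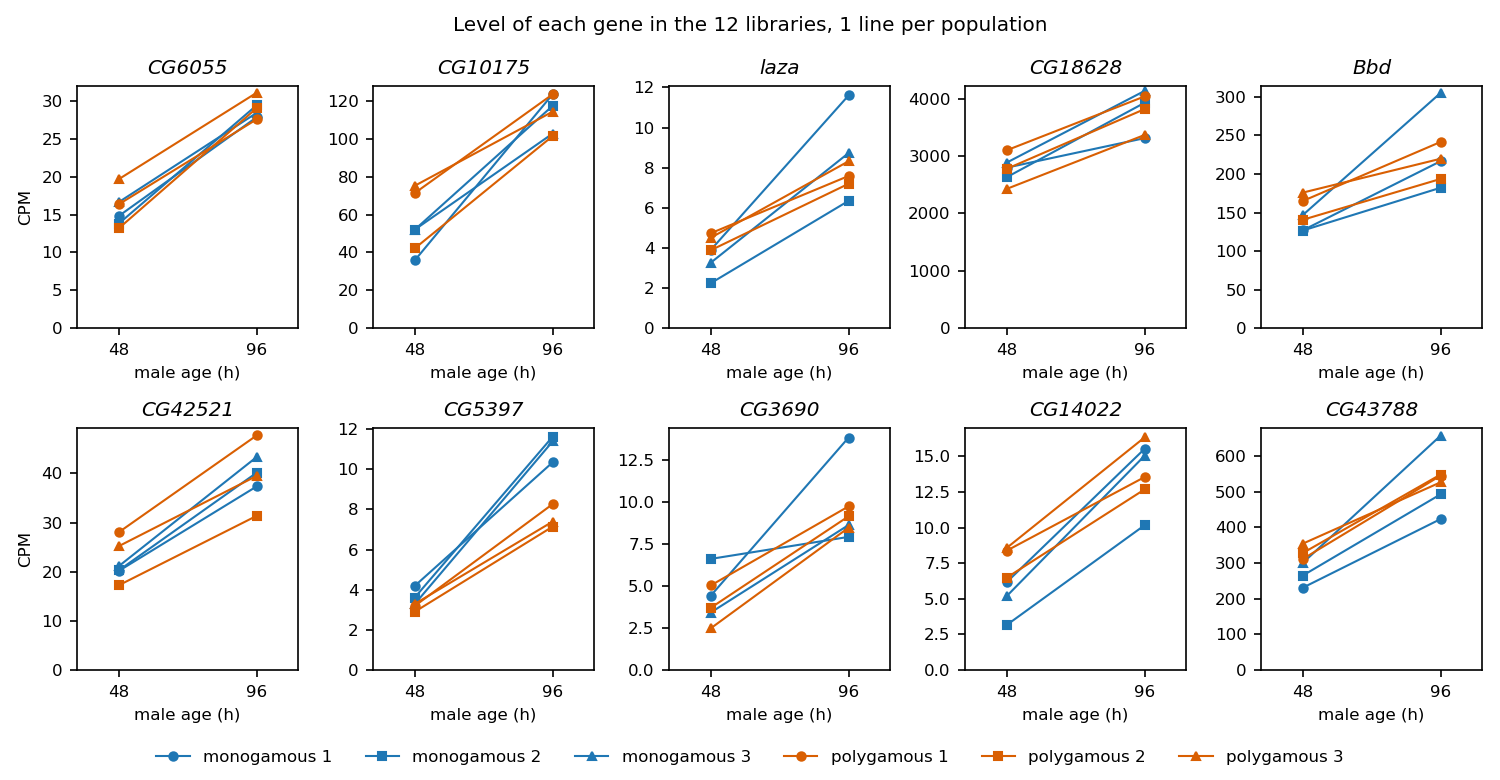
Level of each gene in CPM (linear axes from 0, scaled separately for each gene) against male age in hours, with 1 line per population, monogamous in blue and polygamous in orange. Every line climbs, from the smallest rise in fold (CG18628 in monogamous population 1, 2799.9 to 3315 CPM) to lines that more than triple (CG10175 in monogamous population 1, 35.7 to 124 CPM).

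The lipid phosphate phosphatase gene laza (FBgn0037163, chromosome 3L, 22458816 to 22461131, minus strand, a single exon, BDGP6.54 annotation) stood at 3.89, 2.24 and 3.26 CPM at 48 h in monogamous populations 1, 2 and 3. At 96 h the same populations stood at 11.6, 6.34 and 8.73 CPM. In polygamous populations 1, 2 and 3 the levels were 4.73, 3.88 and 4.50 CPM at 48 h and 7.58, 7.20 and 8.32 CPM at 96 h. Monogamous population 2 was the lowest at both ages and monogamous population 1 the highest at 96 h, so that the order of the monogamous populations was the same at both ages. The rise averaged 2.24-fold (log2 change 1.16 ± 0.16, SE, 6 libraries against 6). It was 2.68-fold to 2.98-fold in the monogamous populations and 1.605-fold to 1.86-fold in the polygamous ones.

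The Toll pathway gene Bbd (FBgn0034512, chromosome 2R, 20534245 to 20535835, plus strand) was measured at 127, 127 and 147 CPM at 48 h in the monogamous populations and at 217, 182 and 305 CPM at 96 h. In the polygamous populations it was at 165, 141 and 176 CPM at 48 h and at 242, 194 and 219.8 CPM at 96 h. The ages came close without overlapping: the highest 48 h library stood at 176 CPM and the lowest 96 h library at 182 CPM. The mean change was 1.55-fold (log2 0.63 ± 0.12), from 1.25-fold in polygamous population 3 to 2.08-fold in monogamous population 3.

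The Bomanin genes, whose short peptides need bombardier in the fat body, were mostly lower at 96 h. They were looked up after the values of Bbd had been seen, and their values are a description. BomS3 stood at 19.3 CPM in the 48 h library of monogamous population 1, at 2.20 to 3.84 CPM in the other 48 h libraries and at 0.217 to 0.953 CPM at 96 h, lower in 6 of 6 populations. BomBc2 stood at 22.6 CPM in that 48 h library, at 2.64 to 4.25 CPM in the others and at 0.190 to 1.37 CPM at 96 h, also lower in 6 of 6. Of the 12 Bomanin genes, 6 were lower in 6 of 6 populations, and 2, BomT1 and BomBc1, had no count in any 48 h library. The rest did not all fall: BomS1 and BomT3 were higher at 96 h in 1 of 6 populations, BomS5 in 3 of 6 and BomBc3 in 4 of 6. BomS1, BomS4 and BomS5 averaged 0.110, 0.115 and 0.0429 CPM at 96 h, near or below the level of a count of 3, so their direction is uncertain. Fat body markers, the known site of Bomanin expression, summed to 0.0254% of the counts of the 48 h library of monogamous population 1 and to 0.00819% to 0.0114% of those of the other 48 h libraries. They lay between 0.00674% and 0.00891% at 96 h, and their part in the Bomanin values was not tested.

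By far the most abundant of the 10 was CG18628 (FBgn0036091, chromosome 3L, 10639740 to 10640136, plus strand), the 16th most abundant of all genes tested and 0.237% to 0.418% of the gene counts of a library. The monogamous populations held 2799.9, 2633 and 2888 CPM at 48 h and 3315, 3933 and 4139.6 CPM at 96 h. The polygamous populations held 3103, 2779 and 2429 CPM at 48 h and 4044, 3822 and 3371 CPM at 96 h. The rise averaged 1.36-fold (log2 0.44 ± 0.07), and the populations ranged from 1.18-fold, in monogamous population 1, to 1.49-fold, in monogamous population 2. Without population 1 the mean of the population changes was 0.48 ± 0.07 on the log2 scale (SD, n = 5), against 0.44 ± 0.12 with it (SD, n = 6). This smallest fold change was the one with the largest gain in CPM, from 2772 ± 228 to 3771 ± 348 CPM (SD, n = 6).

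The second most abundant was CG43788 (FBgn0264329, chromosome 2R, 16937597 to 16938011, plus strand). It stood at 231, 265 and 300.3 CPM at 48 h and at 424, 493.0 and 658 CPM at 96 h in the monogamous populations. The polygamous populations stood at 311, 328 and 354 CPM at 48 h and at 545, 548 and 527 CPM at 96 h. On average the rise was 1.80-fold (log2 0.84 ± 0.10), and the populations ranged from 1.49-fold to 2.19-fold. At 48 h every polygamous library was above every monogamous one, whereas at 96 h the 3 polygamous libraries lay inside the monogamous range. This gene lies within Pkc53E, a protein kinase C gene on the same strand, in an intron: its exons share 0 bases with those of Pkc53E. Pkc53E stood at 18.8 ± 5.81 CPM at 48 h and 25.5 ± 1.54 CPM at 96 h (SD, n = 6), higher in 6 of 6 populations but not called (log2 0.45 ± 0.20, edgeR adjusted p = 0.278). Reads from an unspliced Pkc53E transcript could count towards CG43788, whose level per kilobase was 850.0 CPM at 48 h, against at most 4.79 CPM per kilobase for Pkc53E in any library.

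The gene CG14022 (FBgn0031700, chromosome 2L, 5327975 to 5328879, minus strand) was at 6.17, 3.16 and 5.19 CPM at 48 h and at 15.5, 10.2 and 15.04 CPM at 96 h in the monogamous populations. It was at 8.38, 6.49 and 8.57 CPM at 48 h and at 13.5, 12.7 and 16.3 CPM at 96 h in the polygamous ones. As with laza, monogamous population 2 was the lowest library at both ages. Unlike those of laza, the polygamous levels of CG14022 at 48 h were all above the monogamous ones. The mean change was 2.26-fold (log2 1.17 ± 0.17), with 2.52-fold to 3.21-fold in monogamous and 1.62-fold to 1.96-fold in polygamous populations.

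Levels of CG42521 (FBgn0260396, chromosome 3L, 10623066 to 10623576, minus strand) were nearly equal in the monogamous populations at 48 h, at 20.2, 20.3 and 21.1 CPM, and reached 37.3, 40.1 and 43.3 CPM at 96 h. The polygamous populations spread more widely, at 28.02, 17.2 and 25.2 CPM at 48 h and 47.7, 31.4 and 39.5 CPM at 96 h, with population 2 the lowest and population 1 the highest at both ages. The mean rise was 1.82-fold (log2 0.86 ± 0.13), and every population lay between 1.57-fold and 2.05-fold.

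These last genes have short coding sequences. Coding bases numbered 186 for CG43788, 189 for CG18628, 303 for CG14022 and 369 for CG42521, so 4 of the 10 genes had fewer than 500. Of the 11416 protein-coding genes tested, 13.4% did, and their median was 1293 coding bases. The other 6 genes ran from 657 coding bases (CG6055) to 2319 (CG10175).

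The largest rise was that of CG5397 (FBgn0031327, chromosome 2L, 1240036 to 1243018, plus strand). In monogamous populations 1, 2 and 3 it stood at 4.19, 3.61 and 3.28 CPM at 48 h and at 10.3, 11.6 and 11.4 CPM at 96 h. In the polygamous populations it stood at 3.19, 2.90 and 3.29 CPM at 48 h and at 8.26, 7.14 and 7.39 CPM at 96 h. The 96 h libraries fell into 2 separate bands by regime, the monogamous band above, whereas the 48 h libraries touched. Over both regimes the change was 2.70-fold (log2 1.43 ± 0.08), from 2.25-fold in polygamous population 3 to 3.47-fold in monogamous population 3.

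The least even rise was that of CG3690 (FBgn0040350, chromosome X, 948585 to 951900, minus strand). The monogamous populations were at 4.42, 6.61 and 3.42 CPM at 48 h and at 13.8, 7.92 and 8.63 CPM at 96 h. The polygamous populations were at 5.03, 3.70 and 2.48 CPM at 48 h and at 9.74, 9.15 and 8.47 CPM at 96 h. The mean was 2.27-fold (log2 1.18 ± 0.21), and the populations ran from 1.20-fold in monogamous population 2, which had the highest 48 h and the lowest 96 h level, to 3.41-fold in polygamous population 3.

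The gene CG10175 (FBgn0039084, chromosome 3R, 23522264 to 23530986, minus strand) stood at 35.7, 52.0 and 52.0 CPM at 48 h in the monogamous populations and at 124, 117 and 103 CPM at 96 h. In the polygamous populations it stood at 71.3, 42.1 and 75.2 CPM at 48 h and at 124, 101 and 114 CPM at 96 h. The 48 h libraries spread from 35.7 to 75.2 CPM and the 96 h libraries from 101 to 124 CPM, with the regimes interleaved at both ages. The mean change was 2.104-fold (log2 1.07 ± 0.15). The largest change, 3.46-fold, was in monogamous population 1, whose 48 h library was the lowest of the 12. Without population 1 the mean of the population changes was 0.96 ± 0.27 on the log2 scale (SD, n = 5), against 1.10 ± 0.42 with it (SD, n = 6).

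The gene CG6055 (FBgn0031918, chromosome 2L, 7466543 to 7472493, plus strand) was at 14.8, 13.8 and 16.6 CPM at 48 h and at 27.9, 29.5 and 28.5 CPM at 96 h in the monogamous populations. It was at 16.4, 13.2 and 19.7 CPM at 48 h and at 27.6, 29.1 and 31.1 CPM at 96 h in the polygamous ones. Libraries of the 2 regimes overlapped at both ages. The log2 difference, polygamous minus monogamous, was 0.12 at 48 h (95% interval -0.16 to 0.40) and 0.03 at 96 h (-0.24 to 0.31). The 96 h libraries had a SD of 1.28 CPM around a mean of 28.9 (n = 6), against 2.36 around 15.7 at 48 h. Averaged over regimes the rise was 1.84-fold (log2 0.88 ± 0.09), and every population lay between 1.58-fold and 2.21-fold.

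**Figure D2:**
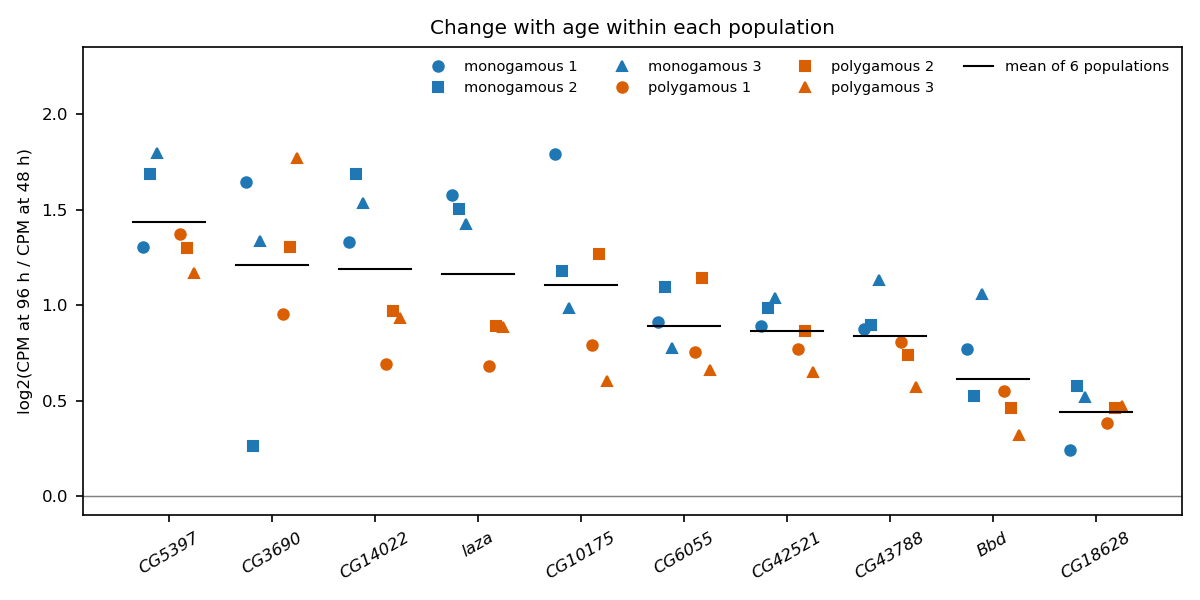
Log2 ratio of the CPM at 96 h to that at 48 h in each population (vertical axis), gene by gene (horizontal axis, ordered by the mean), with monogamous populations in blue, polygamous in orange and the mean of 6 populations as a black bar. Every point lies above 0, the lowest being CG18628 in monogamous population 1 at 0.24, and for laza, CG14022, CG42521 and CG43788 every blue point lies above every orange one.

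Scaled to exon length, the 10 genes spanned more than 3 orders of magnitude. Mean levels at 48 and 96 h were 8299 and 11289 CPM per kilobase for CG18628, 850.0 and 1517 for CG43788, 96.0 and 148 for Bbd, and 48.1 and 87.3 for CG42521. The genes CG10175, CG6055 and CG14022 formed a middle tier at 13.6, 13.5 and 9.70 CPM per kilobase at 48 h and 28.3, 24.9 and 21.3 at 96 h, whose neighbours overlapped between libraries. At the bottom CG3690, laza and CG5397 lay at 1.68, 1.62 and 1.18 CPM per kilobase at 48 h and 3.79, 3.58 and 3.22 at 96 h, and likewise overlapped. The order of the mean levels was therefore the same at both ages. Counting error was not small for the least abundant genes: the counting SE of a population's log2 change reached 0.20 for laza, 0.17 for CG5397 and CG3690 and 0.16 for CG14022. For laza it was larger than the SD of the changes within either regime, 0.08 and 0.12.

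Mating regime was compared first at 48 h, which asks whether males of the 2 histories differed early in maturation. None of the 10 genes was called (edgeR quasi-likelihood test, Benjamini-Hochberg adjusted p from 0.260 to 0.994, 3 libraries against 3), and neither was any of the 13156 genes (0%). At an unadjusted p under 0.05 edgeR counted 2256 genes (17.1%) and DESeq2 2390, and at an adjusted p under 0.05 DESeq2 called 138 of 12627. Without the 48 h library of monogamous population 1, edgeR counted 1610 of 13322 genes at an unadjusted p under 0.05. The widest gap was in CG14022, 7.81 ± 1.15 CPM in polygamous and 4.84 ± 1.53 in monogamous males (SD, n = 3), a log2 difference of 0.69 ± 0.24 (95% interval 0.16 to 1.22) whose edgeR adjusted p was 0.260. The next gap without overlap was in CG43788, 331 ± 21.7 against 265 ± 34.7 CPM, a log2 difference of 0.32 ± 0.14 (edgeR adjusted p = 0.287). The shares of genes without overlap between regimes at 48 h were 2 of these 10 and 22.3% of all genes. Estimates for laza (0.48 ± 0.23) and CG10175 (0.43 ± 0.21) were higher in polygamous males with overlapping libraries, and those for CG5397 (-0.24 ± 0.12) and CG3690 (-0.37 ± 0.31) were lower. Over all the alternatives, libraries left out included, the log2 difference ran from 0.46 to 0.90 for CG14022 and from 0.23 to 0.42 for CG43788. It ran from 0.29 to 0.66 for laza and from 0.27 to 0.65 for CG10175. For CG18628 the interval of the log2 difference ran from -0.23 to 0.23.

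At 96 h the libraries of the 2 regimes did not overlap for 1 gene of the 10, CG5397, and for 10.8% of all genes, a similar share. CG5397 stood at 7.60 ± 0.59 CPM in polygamous and 11.1 ± 0.68 CPM in monogamous males (SD, n = 3), 1.46-fold lower in polygamous males (log2 difference -0.55 ± 0.11, 95% interval -0.79 to -0.30). Its unadjusted p of 0.00048 in edgeR's quasi-likelihood test was the 10th smallest of all genes, and the Benjamini-Hochberg adjusted p was 0.609, so it was not called. DESeq2 gave an adjusted p of 0.0163 for the same gene, and over all the alternatives its log2 difference lay between -0.61 and -0.50 with adjusted p from 0.0163 to 1.00. edgeR called 0 of 13156 genes at 96 h (0%), with 439 at an unadjusted p under 0.05 (3.34%), and DESeq2 called 24 of 16034. For the other 9 genes the estimates lay between -0.21 and 0.06 and the libraries of the 2 regimes overlapped.

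With the libraries of each population summed over both ages, 3 population sums against 3, CG5397 was again lower in polygamous males, by a log2 difference of -0.49 ± 0.09 (95% interval -0.71 to -0.26) without overlap. The edgeR adjusted p was 0.519 and that of DESeq2 0.0255. In this comparison edgeR called 0 of 13512 genes (0%), with 1285 at an unadjusted p under 0.05 (9.51%), and DESeq2 called 78 of 13261. The sums include the 96 h libraries and are not a second test of the gene. Estimates for the other 9 genes lay between -0.22 for CG3690 and 0.22 for CG14022.

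**Figure D3:**
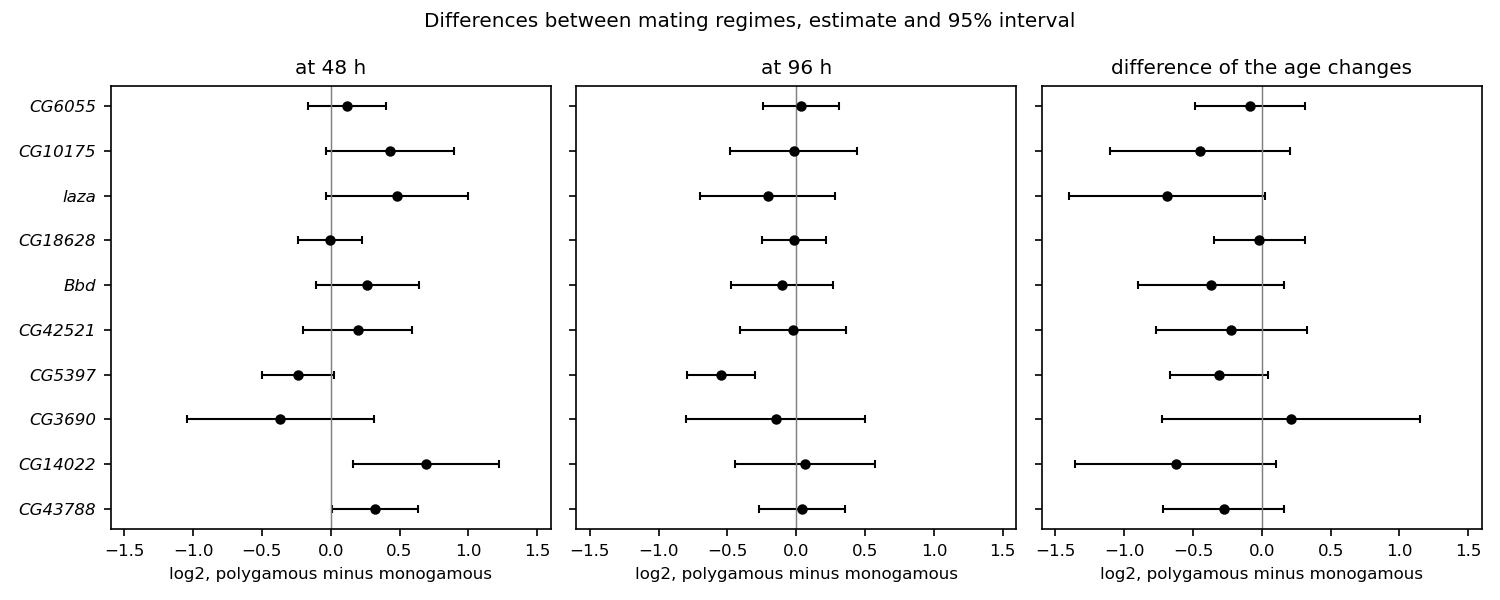
Log2 difference between polygamous and monogamous males for each gene, with its 95% interval from the edgeR fit, at 48 h (left), at 96 h (middle) and for the change with age (right). At 48 h the intervals of CG14022 and CG43788 lie above 0, at 96 h that of CG5397 lies below 0 (-0.79 to -0.30), and for the change with age all 10 intervals include 0.

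Whether the rise itself differed between regimes was tested as the difference of the 2 age changes, in the fit without a population block. The choice of the genes asked for no overlap between ages, which favours genes that rose in both regimes, so the test was not independent of it. The estimates ran from -0.69 for laza to 0.21 for CG3690, a negative value being a smaller rise in polygamous males. The median over all genes tested was 0.01. The 10 genes share libraries and moved together, so their estimates are not independent. None of the 10 genes was called by edgeR's quasi-likelihood test with Benjamini-Hochberg adjustment (adjusted p from 0.920 to 0.990), nor was any of the 13156 genes (0%). At an unadjusted p under 0.05 edgeR counted 336 genes (2.55%), and DESeq2 called 0 at an adjusted p under 0.05. The largest differences were those of laza (log2 -0.69 ± 0.32, 95% interval -1.40 to 0.02, unadjusted p = 0.0561 in the edgeR fit) and CG14022 (-0.63 ± 0.33, -1.36 to 0.11, unadjusted p = 0.0864 in the edgeR fit). For CG3690 the difference was 0.21 ± 0.42. Within regimes the median log2 change of the 10 genes was 1.03 in monogamous and 0.83 in polygamous males.

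The population changes of the 2 regimes did not overlap for 4 of the 10 genes, laza, CG14022, CG42521 and CG43788, and for 16.2% of all genes. In laza the monogamous changes averaged 1.501 ± 0.08 and the polygamous ones 0.82 ± 0.12 on the log2 scale (SD, n = 3). In CG14022 they averaged 1.52 ± 0.18 and 0.86 ± 0.15. With the population as a block and without monogamous population 1, edgeR called CG14022 (log2 difference -0.74 ± 0.13, adjusted p = 0.0178) among 110 of 13226 genes, and laza had an adjusted p of 0.0845. With the block and all 6 populations the adjusted p of both was 0.726. For both genes the mean level at 48 h was higher in polygamous males. The libraries of the 2 regimes overlapped at 96 h for both genes, and at 48 h for laza.

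Over the 12 libraries the 10 genes moved together, which the choice of genes that rise brings with it. Pearson's r between log2 levels of the 45 pairs ran from 0.62 to 0.97 with a median of 0.85. With the mean of each regime and age subtracted, which leaves the deviations of single libraries within a group, r ran from -0.58 to 0.92 with a median of 0.15, and 16 pairs were below 0. These are descriptions over libraries that share populations and tissue, with no test. One pair remained close: laza and CG14022, which lie on different chromosomes, had r = 0.97 as measured and 0.92 after the subtraction. For both, monogamous population 2 was low at either age. The pair CG10175 and CG42521 followed at 0.68, Bbd and CG43788 at 0.67, and CG3690 ran opposite to CG6055 at -0.58.

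**Figure D4:**
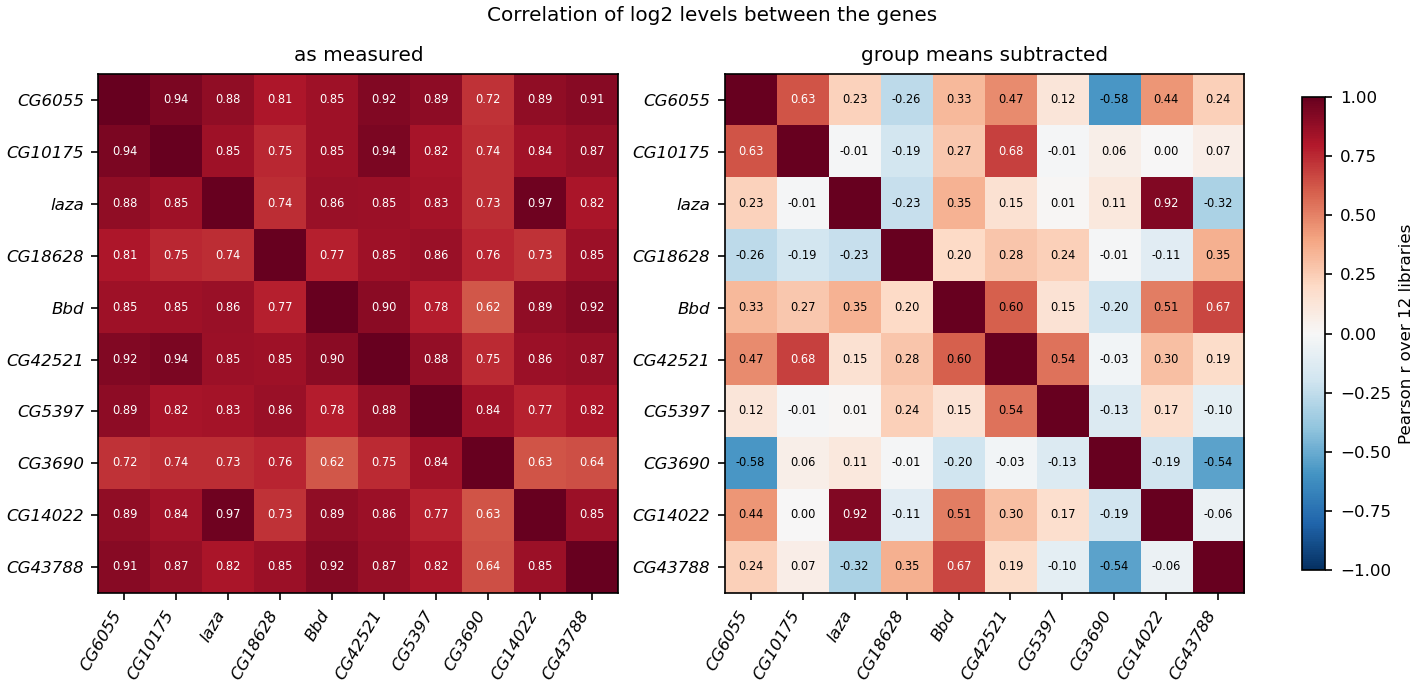
Pearson correlation of log2 levels between the 10 genes over 12 libraries, as measured (left) and with the mean of each group of regime and age subtracted (right), on a colour scale from -1 (blue) to 1 (red). All pairs are positive on the left (0.62 to 0.97), and on the right laza with CG14022 remains at 0.92 while 16 of the 45 pairs fall below 0.

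Among genes of at least 5 mean CPM outside the set, those closest to the mean profile of the 10 were FANCI (r = 0.97 over 12 libraries), a gene of the Fanconi anaemia DNA repair pathway, the pseudogene CR43086 (0.97), CG16799 (0.97), RpL24-like (0.96) and LTV1 (0.96), both of the latter being ribosome assembly factors. After subtraction of the group means other genes came first, namely CG31821 (0.94), CG30151 (0.90), pio (0.89) and the ribosomal protein genes RpS27 (0.89) and RpS20 (0.88). Gene by gene, the nearest as measured were CG16799 for laza (0.95), CG15098 for Bbd (0.95), CG34171 for CG18628 (0.91), CG8369 for CG43788 (0.94), CG13012 for CG14022 (0.95) and CR43086 for CG42521 (0.96). They were CG13255 for CG5397 (0.93), CG7386 for CG3690 (0.92), Lgr1, a glycoprotein hormone receptor gene, for CG10175 (0.96) and FANCI for CG6055 (0.97). With group means subtracted they were Sou for laza (0.98), CG17242 for Bbd (0.95), lncRNA:CR44302 for CG18628 (0.95), lncRNA:CR44389 for CG43788 (0.95), CG13458 for CG14022 (0.99) and asRNA:CR44370 for CG42521 (0.97). They were CG11404 for CG5397 (0.96), Vha14-1 for CG3690 (0.91), Pax for CG10175 (0.97) and cindr for CG6055 (0.92), so no gene was nearest under both views.

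Of 21 genes that overlap or flank the 10, 18 were tested, with 9 of 18 higher at 96 h and a median log2 change of -0.02. edgeR called 0 of them for age (adjusted p under 0.05; DESeq2 called 1), where 1.57% of all genes tested were called, so at this number a count of 0 does not set them apart. With the population as a block and without monogamous population 1 the count was 5, in a fit that called 2924 of all 13226 genes tested. The nearest to a call was Ziz, which lies 19 bases from CG6055 on the other strand (log2 0.34 ± 0.09, edgeR adjusted p = 0.0839, higher in 6 of 6 populations). The gene cype, which encodes a subunit of cytochrome c oxidase, lies 5 bases from CG14022 on the other strand and had a log2 change of -0.13 ± 0.07 (edgeR adjusted p = 0.339).

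Only CG42521 and CG18628 were close to each other, 16163 bases apart on chromosome arm 3L with 9 genes between them. All 9 were tested and 0 were called by edgeR, with log2 changes from -0.08 (CG43127) to 0.21 (CG14151) and a median of 0.09, 8 of them higher at 96 h. The block includes E(z), the histone methyltransferase of Polycomb repression, at 0.02 ± 0.12, and hay, a helicase subunit of the transcription factor TFIIH, at 0.09 ± 0.09. The nearest pair of members after these was CG14022 and CG6055 on 2L, 2137663 bases apart.

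**Figure D5:**
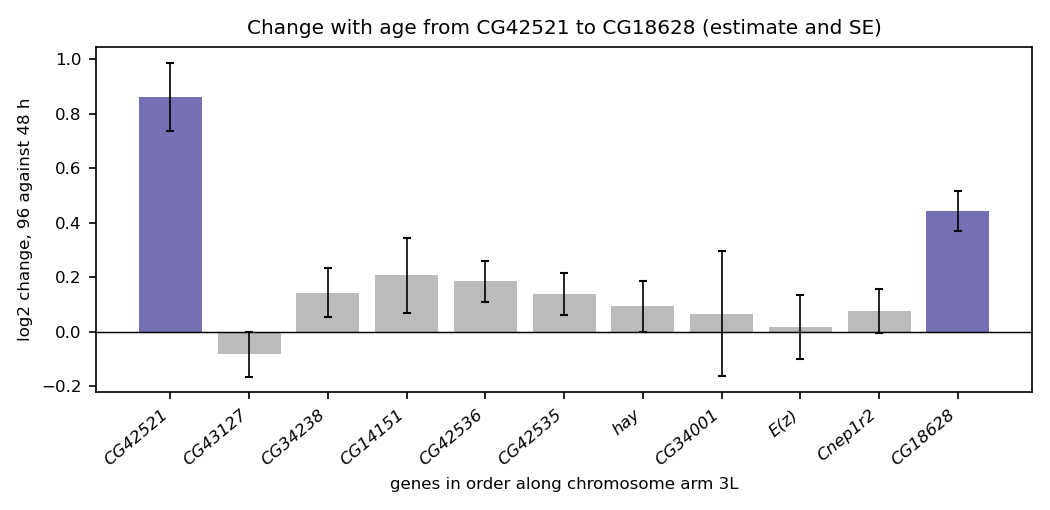
Log2 change from 48 to 96 h (edgeR estimate, error bars SE, 6 libraries against 6) of CG42521 and CG18628 (purple) and of the 9 genes between them (grey), in their order along chromosome arm 3L and not to scale. The 2 outer bars stand at 0.86 and 0.44, and the 9 inner bars between -0.08 and 0.21.

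Of the 6 other lipid phosphate phosphatase genes, relatives of laza, 5 were tested and 1, CG11426, was higher at 96 h (log2 0.10 ± 0.12). For age edgeR called 0 of the 5, beside 1.57% of all genes tested, and 0 in the regime comparisons, where no gene was called. The median log2 change was -0.10. CG11438, which lies 4487 bases from laza, was the most abundant at 37.9 ± 8.62 CPM at 48 h (SD, n = 6) and had a log2 change of -0.12 ± 0.14, lower in 6 of 6 populations. The lowest was wun2, known for guiding germ cells in the embryo, at -0.43 ± 0.17 (edgeR adjusted p = 0.245).

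Lists of C-type lectins and of carboxylesterases had been drawn up as possible relatives of CG6055 and CG10175. No annotation at hand assigned either gene to these families, so the lists are given only for their values. Of 19 other C-type lectins tested, 0 were called higher and 1 lower at 96 h, lectin-28C (log2 -1.26 ± 0.26, edgeR adjusted p = 0.0404), beside 0.851% and 0.715% of all genes tested. This call was lost when any of 9 of the 12 libraries was left out. Of 19 other carboxylesterases tested, 0 were called, and the most abundant, the ejaculatory duct enzyme Est-6, went from 2869 ± 791 to 1572 ± 356 CPM (log2 -0.86 ± 0.21, edgeR adjusted p = 0.0841). The medians were -0.05 and -0.06, beside 0.01 for all genes tested.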

How the data were processed

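Stranded total RNA libraries were made from pooled male reproductive tracts, per the labels' protocols. Each library has its own deposited table of raw, whole-number counts of reads for every gene. The authors' tools were Trimmomatic 0.33, TopHat2 2.1.0 and HTSeq 0.6.1 on build BDGP6, per the submitters' processing notes. Which annotation release, strand option and overlap mode HTSeq was run with was not given in the sources used here. The counts of overlapping genes are therefore uncertain. The 5 summary lines of each table, 15.1% to 17.2% of all reads counted, were left out of totals and tests. Names and coordinates were read from Ensembl release 115 (BDGP6.54), which names 17253 of the 17559 identifiers.

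Counts were tested with edgeR 4.0.16 in R 4.3.3 (filterByExpr, TMM, glmQLFit with robust estimation, glmQLFTest), with 1 coefficient per group and all 12 libraries in 1 fit. Calls required an adjusted p (Benjamini-Hochberg, over all genes tested) under 0.05. Regime differences were also tested on counts summed per population. The calculation was tested on simulated data. The alternatives were other size factors, no filter, DESeq2 1.42.0, each library left out, monogamous population 1 left out, and blocks by population or by number. Likeness used log2 of CPM plus 0.5.

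Deviations from the group means were correlated between the 48 and 96 h libraries of a population (r from 0.40 to 0.59 over genes, each 48 h library closest to its own population among those of 96 h), so the population was a true block for age. The main fit left this block out, so its SEs and p-values for age changes and their difference include the spread between populations. The fit with the block is given as an alternative. Equal numbers in the 2 regimes were not pairs. No files were identical. Replicates of a group differed by a chi-square of 11.6 to 190.1 per degree of freedom. Nothing in the labels says that lines were sampled more than once per age.

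The 10 genes, the family and marker lists and the tests were chosen with earlier results of these data known. All 10 genes are named; of neighbours and relatives, those called or, if none, the most abundant, with some others chosen after their values were seen, as were the Bomanin genes. The genes nearest in profile were the 5 closest to the mean of the 10 and the 1 closest to each.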

Additional observations from a re-analysis of the deposited data

How the results depend on the processing

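The age changes of the 10 genes moved by less than 1 SD of the populations under all 190 alternative values computed. The count of genes called for age, 206, was 662 with library totals only, 611 with DESeq2, 819 without monogamous population 1, 445 with the population as replicate block and 2924 with that block and without population 1. Leaving out 1 library gave 77 to 926, the highest without the 48 h library of monogamous population 1. Calls for regime, 0 in edgeR, were 138 of 12627 genes at 48 h, 24 of 16034 at 96 h and 78 of 13261 on sums with DESeq2. Of the 10 genes, 1 (CG5397) was called at 96 h and 1 (the same gene) on sums. With 1 library or sum left out, edgeR's calls for regime were 0 to 1 at 48 h, 0 to 17 at 96 h (17 without the 96 h library of monogamous population 2), 0 to 3 for the difference of age changes and 0 to 1 on sums. The block by population without population 1 gave 110 of 13226 genes and 1 of the 10 (CG14022) for that difference. With the block and all populations none of the 10 was called. Blocking by number across regimes, which do not pair, called none of the 10. The cause of these shifts was not tested.

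Neighbours called for age, 0, were 1 with library totals, 1 with DESeq2, 1 without population 1, 5 with the block and without population 1, and 0 to 2 with 1 library left out. The lists of lipid phosphate phosphatases, C-type lectins and carboxylesterases were counted together. Genes of these lists called for age, 1 (lectin-28C), were 2 with library totals, 3 with DESeq2, 2 without population 1 and 2 with the block. They were 15 with the block and without population 1, and 0 to 4 with 1 library left out. The fit with the block and without population 1 called 2924 of all 13226 genes tested. The 5 neighbours and 15 listed genes have to be read beside that count. The median rise in monogamous males, 1.03, was 1.09 with library totals and 0.99 to 1.12 with 1 library left out. The median r between the genes, 0.85, was 0.15 with group means subtracted.

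Regime estimates near 0 changed sign, none of them called. At 96 h, CG10175 was 0.0040 with library totals and 0.039 without population 1, laza 0.031, CG3690 0.14 and CG43788 -0.091 without population 1, and CG18628 0.0051 with library totals. At 48 h CG18628 was 0.0018 with library totals, 0.0026 without the filter and 0.0052 without population 1. Its difference of age changes was 0.0033 with library totals, and laza on sums was 0.0058 with the block by number.

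With 1 library left out, estimates at 96 h ran from -0.25 to 0.14 for Bbd, -0.085 to 0.058 for CG10175, -0.10 to 0.17 for CG14022, -0.11 to 0.057 for CG18628, -0.30 to 0.14 for CG3690, -0.18 to 0.12 for CG42521, -0.089 to 0.24 for CG43788, -0.0069 to 0.076 for CG6055 and -0.40 to 0.033 for laza. At 48 h they ran from -0.090 to 0.086 for CG18628 and -0.031 to 0.26 for CG6055. The difference of age changes ran from -0.11 to 0.071 for CG18628, -0.084 to 0.50 for CG3690 and -0.22 to 0.064 for CG6055. Sums ran from -0.085 to 0.20 for Bbd, -0.089 to 0.061 for CG18628, -0.12 to 0.20 for CG42521, -0.030 to 0.11 for CG6055 and -0.22 to 0.20 for laza.

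Searches for closest relatives by protein sequence and for promoter motifs were not run.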
